A study of Mus musculus with 24 samples.

Results

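This account covers the response of wild-type mouse lung to house dust mite (HDM), an airborne allergen source. The members are the samples whose titles name wild-type HDM or wild-type PBS (phosphate-buffered saline, the control): 3 HDM and 3 PBS samples, 6 of the 12 samples of the study. Each sample was hybridised to a pair of oligonucleotide arrays, set A and set B, so 12 of the 24 arrays belong here. The other 6 samples come from mice lacking interleukin 13 (IL-13 KO), again 3 with HDM and 3 with PBS, and they enter the signal filter, the estimate of the spread and the comparison of genotypes near the end. The labels name the tissue as murine lung and the genotypes as wild type and IL-13 KO. The sources used here gave no strain background, age, sex, dose, route or schedule. Whether replicates were different animals is not stated, so each p-value reflects only how much these samples spread, which may be technical.

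Inhaled mite extract is used in mice as a model of allergic asthma. Epithelial alarm signals and dendritic cells prime T helper cells that release interleukin 4, 5 and 13. Through the shared receptor chain and the transcription factor STAT6, interleukin 4 and 13 act on airway epithelium, which turns to mucus production, on macrophages, which take up an arginase-rich state, and on smooth muscle and stroma. Interleukin 5 supports eosinophils, and B cells mature into antibody-secreting plasma cells.

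Values are the deposited linear intensities, called signals below, 1 per probe set (a group of probes for 1 transcript). Fold changes are differences of log2(signal + pseudocount), HDM minus PBS, with a standard error (SE) from a limma model of the 4 groups, and they understate the change of genes with low signal. A gene was called when its Benjamini-Hochberg adjusted p over 31526 probe sets was under 0.05. Probe sets whose mean over all 12 samples, IL-13 KO included, lay under the 30th percentile of their array set were left out (the signal filter). For each of 14469 named genes the tested probe set of highest mean signal was used. Signals in parentheses or lists are in the order of replicates 1, 2 and 3, and replicates of a group have no other order. In bulk tissue, fewer cells of a type, less RNA per cell and a smaller share of the total RNA cannot be told apart. The share can fall when other cells add RNA, since every array had the same trimmed mean of 150. This limit holds for every list below.

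The lung identity was plain in the arrays. The surfactant gene Sftpc had signals of 5280 to 6060 after PBS and 4300 to 7100 after HDM, and the club cell secretoglobin Scgb1a1 had 5000 to 5910 and 4260 to 6050. The highest signal of any probe set on the wild-type set A arrays was 4884 to 7682, and both genes lay near it. Changes at the top of the range may be understated, which was not tested. Skeletal muscle and adipose signal varied between samples without separating the treatments. The summed signal of 17 skeletal muscle genes was 726, 4420 and 1050 in the PBS samples and 2850, 9430 and 827 in the HDM samples, so PBS replicate 2 and HDM replicates 1 and 2 stood apart. The part of this tissue in the results was examined by leaving those 3 samples out. The summed signal of 7 adipose genes ranged from 452 to 1240 after PBS and from 354 to 1750 after HDM. PBS replicate 2 also had the lowest actin ratio (signal of the 5' over that of the 3' actin probes, which drops when RNA is degraded), at 0.409 on set A and 0.349 on set B, against 0.643 to 0.939 in the other 5 wild-type samples over both sets. The same ratio for Gapdh did not set PBS replicate 2 apart. It was 1.04 on set A and 1.02 on set B, against 0.841 to 1.24 in the other 5 wild-type samples over both sets. Leaving out the 3 samples with muscle signal keeps 2 PBS samples and 1 HDM sample, which is then assumed to vary like the other groups. Counts that moved by 1.5 times or more without such samples, and named genes that lost their call without them, are given with the list.

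Similar numbers of genes were higher and lower after HDM. Of 14469 genes, 860 (5.94%) were called higher and 857 (5.92%) lower, and 2788 of 31526 probe sets (8.84%) were called in either direction. The median change over all genes was -0.004. The rises were the larger changes: 374 genes were called higher by at least 2-fold and 153 lower, 78 higher by at least 4-fold and 8 lower, and 30 genes higher by at least 8-fold. The median log2 fold change of the called genes was 0.92 for rises and -0.71 for falls. The 3 HDM signals lay wholly above the 3 PBS signals in 1916 genes (13.2%) and wholly below in 2095 (14.5%), called or not, and 1705 called genes had groups that did not overlap. Without HDM replicate 3 the number of called genes fell from 1717 to 1074, and without the 3 samples with muscle signal to 860.

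Among genes that passed the signal filter, the 15 largest rises were in genes of mucous epithelium, macrophages, eosinophil attraction and antibody. The filter averages all 12 samples, so a gene with little signal after PBS can pass through its HDM samples. Arg1, AA467197 and Trem2 had all wild-type PBS signals under the cut-offs of 32 (set A) and 38.9 (set B). Itln1 and Retnlb lay under the filter and rose by 5.49 and 3.95 in the fit with no filter. Clca1, a secreted protein of mucous cells, had signals of 23.1, 2.48 and 148 after PBS and 3760, 4870 and 4580 after HDM (log2 fold change 6.95, SE 0.84, adjusted p = 0.0001). Rnase2a, which encodes an eosinophil ribonuclease, had 29.8, 1.62 and 50.4 after PBS and 1860, 1840 and 2110 after HDM (6.20, SE 0.52). In both genes the PBS samples were scattered over a wide range of low signal while the HDM samples lay close together, and the groups were far apart. Arg1, the arginase of alternatively activated macrophages, had 3.45, 4.34 and 30.1 after PBS and 815, 877 and 1740 after HDM (6.05, SE 0.40). Mmp12, the macrophage elastase, had 36.4, 20.1 and 64 against 1730, 1810 and 1570 (5.29, SE 0.26). AA467197 had 8.77, 10.9 and 8.58 against 586, 579 and 877 (5.06, SE 0.34). HDM replicate 3 was the highest sample for Arg1 and AA467197 and the lowest HDM sample for Mmp12. The rest of the 15 were Chil4, the immunoglobulin genes Iglv1, Igk and Igkv9-120, Slc26a4, Ccl8, Ccl11, Gpnmb, Alox15 and Trem2, with log2 fold changes of 3.67 to 6.09. Probe sets cannot fully separate near-identical copies, so Chil4 and its neighbour Chil3, the ribonuclease family of Rnase2a and the immunoglobulin genes are uncertain as single genes.

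**Figure D1:**
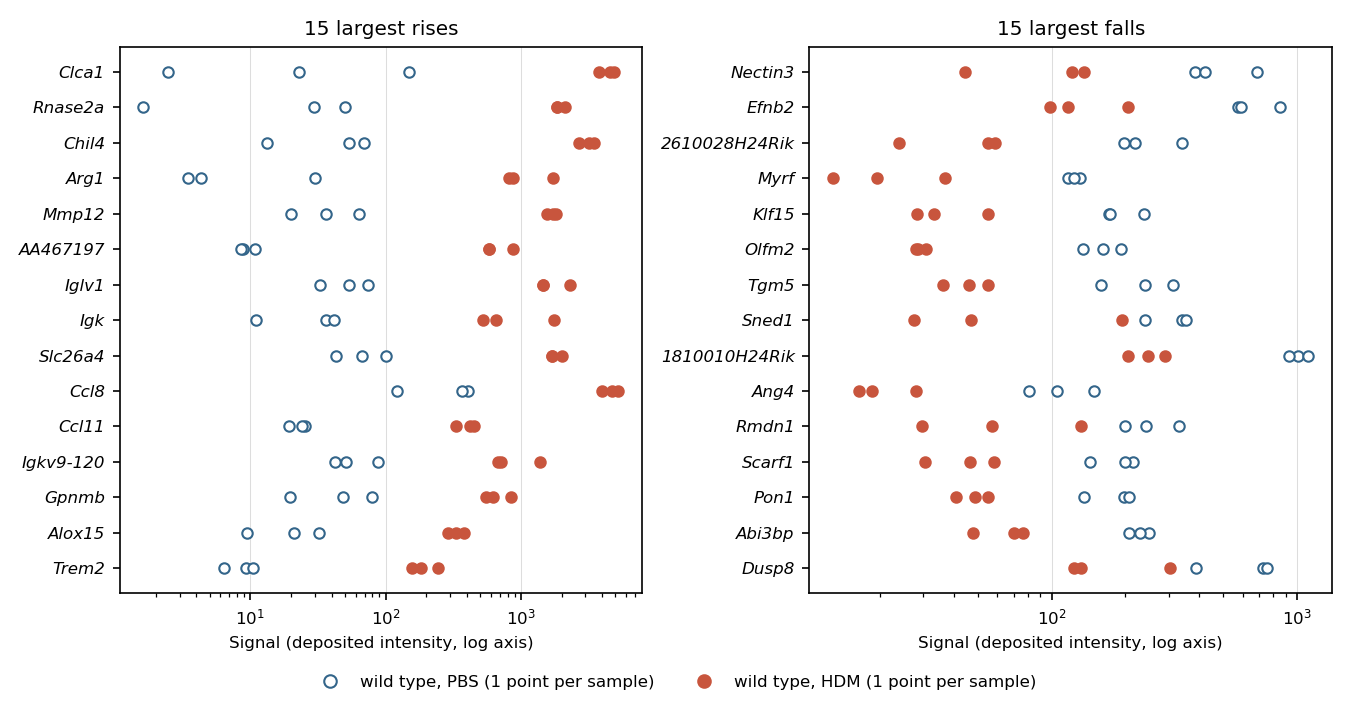
Signal (deposited intensity, log axis) of 15 rising and 15 falling genes, 1 open point per wild-type PBS sample and 1 filled point per wild-type HDM sample. They are those of greatest change among called genes that passed the signal filter and whose groups do not overlap. Every rise shown spans more than a decade between typical PBS and HDM signals, while the falls are narrower, from -2.27 for Nectin3 to -1.73 for Abi3bp on the log2 scale.

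The falls were smaller and fell on other kinds of genes. Nectin3, a cell adhesion protein, had signals of 689, 384 and 423 after PBS and 121, 136 and 44.4 after HDM (-2.27, SE 0.42, adjusted p = 0.0032). Of its other 4 probe sets, 2 were called lower (-1.02 and -0.94) and 2 were not called (-0.55 and -0.19). Efnb2, the arterial ephrin ligand, had 573, 848 and 590 against 205, 117 and 98.4 (-2.25, SE 0.27), with 1 of its 4 probe sets not called (-1.26). Klf15, a transcription factor that responds to glucocorticoid, had 171, 239 and 173 against 28.2, 33.1 and 55.1 (-2.16, SE 0.24). The groups did not overlap in any of these, although HDM replicate 3 was the lowest sample for Nectin3 and Efnb2 and the highest HDM sample for Klf15. Myrf, a membrane-bound transcription factor, had 117, 130 and 123 against 12.9, 36.7 and 19.5 (-2.19, SE 0.25). The unnamed clone 1810010H24Rik had the highest signals of the 15, 1010, 1110 and 926 after PBS and 247, 289 and 205 after HDM (-2.0, SE 0.16). The paraoxonase Pon1 had 197, 207 and 135 against 40.9, 48.8 and 55.2 (-1.74, SE 0.17). The others were 2610028H24Rik, Olfm2, Tgm5, Sned1, Ang4, Rmdn1, Scarf1, Dusp8 and Abi3bp. Rmdn1 and Dusp8 rest on 1 probe set each: the other 2 of Rmdn1 gave -0.25 and -0.23, and the other of Dusp8 gave -0.40, none called. Without the 3 samples with muscle signal, adjusted p was 0.38 for Dusp8, 0.22 for Tgm5, 0.13 for Ang4 and 0.052 for Scarf1.

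Genes measured by several probe sets gave a check on single values. Of 2662 genes with at least 3 tested probe sets, 24 had all of them called higher and 15 all called lower. Ighm, the heavy chain of IgM, was called higher on 7 of 7 probe sets, with a median log2 fold change of 3.40. Cotl1, which binds actin filaments in leukocytes, was called higher on 6 of 6, from 0.67 to 2.12, and the lysosomal protease Ctsb on 5 of 5, from 0.94 to 1.80. The growth factor Igf1 was called higher on 4 of 4, from 1.03 to 2.0. Falls on 4 of 4 probe sets were seen for Gstm1, a glutathione transferase (-1.44 to -0.75), Egfl7, a protein secreted by endothelium (-1.19 to -0.69; adjusted p = 0.052 without the 3 samples with muscle signal), and Otud7b, a deubiquitinase (-1.01 to -0.57). Tmcc3 was called lower on 5 of 5, from -0.99 to -0.53, but its representative probe set was not called without any 1 wild-type sample other than PBS replicate 3 (adjusted p = 0.056 to 0.14). The probe sets of Cp, Cxcl12 and Srsf2 were called in opposite directions.

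Gene lists were compared by the number of tested members called and by their median, beside 5.94% called higher, 5.92% called lower and a median of -0.004 over all genes. The lists were chosen with earlier results of these data known, so their counts and medians describe the data and test nothing. Members under the signal filter were not tested, and some lists share genes. Where a list below has 0 genes called in a direction, at most 2 of its genes had an unadjusted p under 0.05 in that direction. Among lists with at least 5 tested members, those with the highest medians held plasma cell, chitinase, CC chemokine and alternatively activated macrophage genes, and those with the lowest held endothelial, alveolar type 1 and club cell genes.

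**Figure D2:**
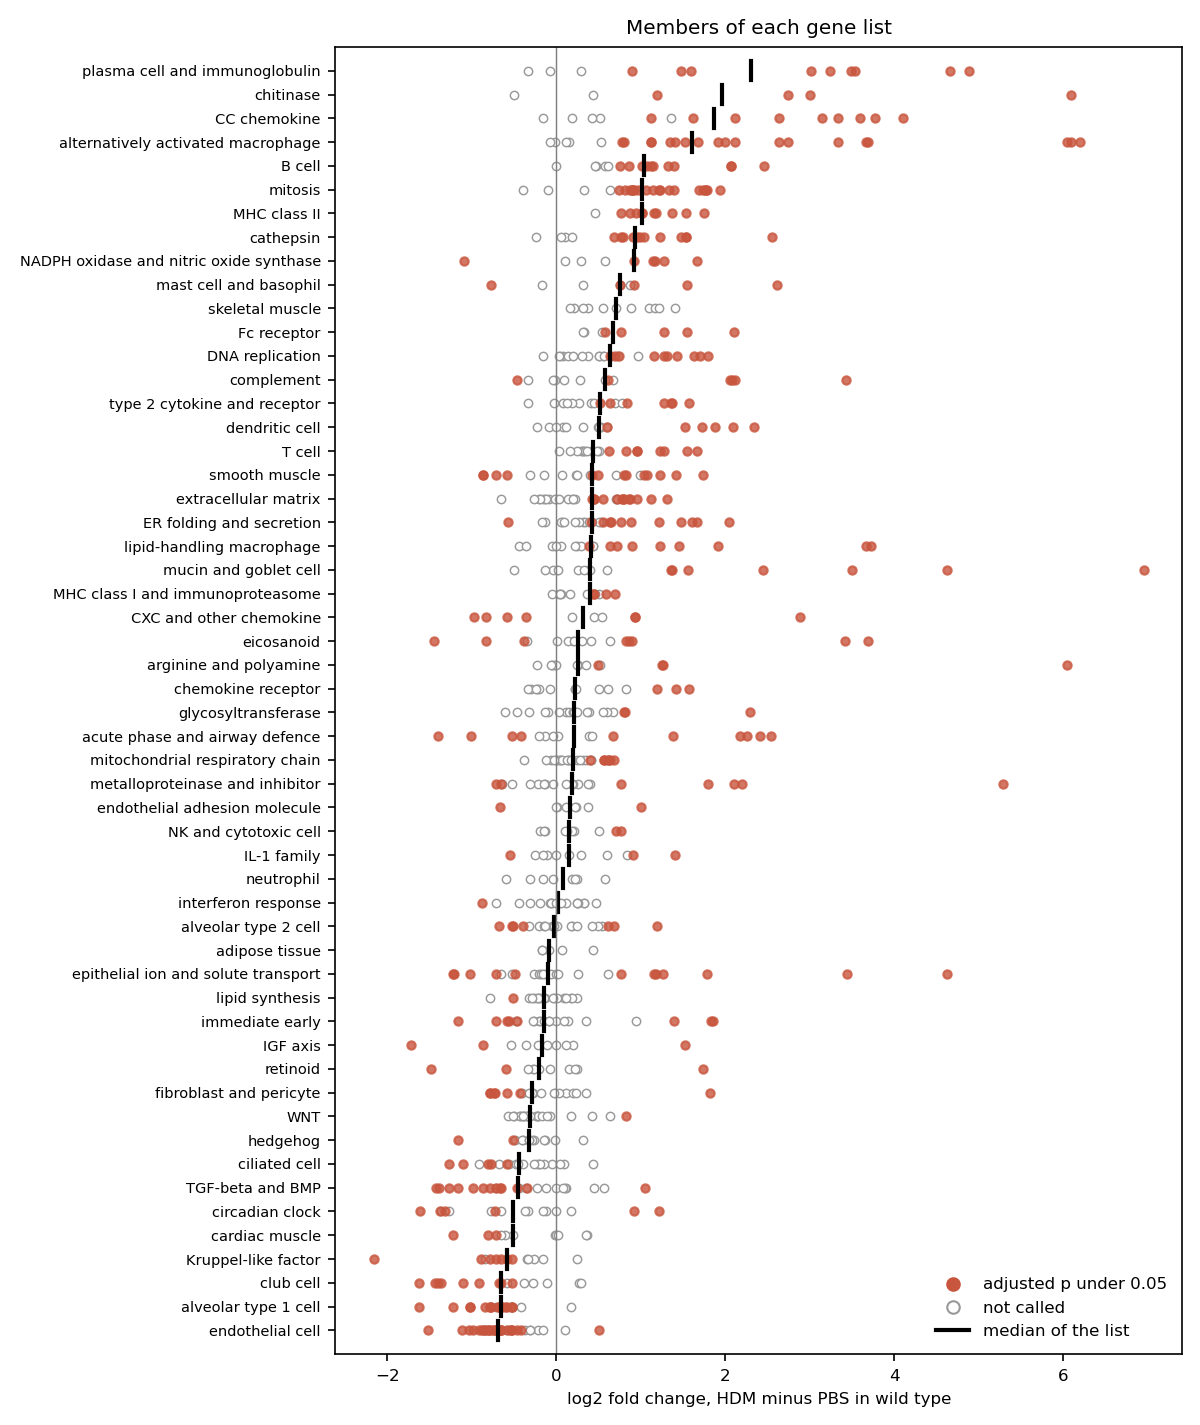
log2 fold change (HDM minus PBS in wild type) of each tested member of the gene lists with at least 5 tested members, 1 point per gene, filled where the adjusted p was under 0.05, with the list's median as a bar. Medians run from -0.69 for endothelial cell genes to 2.30 for plasma cell and immunoglobulin genes.

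Part of the mucin and goblet cell list was higher after HDM. Of 25 listed mucin and goblet cell genes 17 were tested, and 7 were called higher and 0 lower (median 0.40). Muc5ac, a gel-forming mucin of airway goblet cells, had signals of 17.2, 12.7 and 21.2 after PBS and 239, 253 and 294 after HDM (3.50, SE 0.17, adjusted p = 2.3e-08). Muc5b, the other secreted airway mucin, had 270, 237 and 242 against 604, 707 and 642 (1.36, SE 0.12), so it started from a higher signal on its own probes and changed less. Fcgbp, a mucus protein that binds the Fc part of IgG, rose by 2.45 (SE 0.16), and the trefoil peptide Tff2 by 1.56 (SE 0.19). Bpifb1, a secreted airway defence protein, rose by 1.37 (SE 0.24). Another 8 listed genes lay under the filter. With no filter, the lectin Itln1 had 1.87, 2.19 and 3.55 after PBS and 423, 437 and 400 after HDM (5.49, SE 0.18, adjusted p = 7.4e-09), and the resistin-like gene Retnlb had 3.02, 1.77 and 6.34 against 160, 176 and 136 (3.95, SE 0.21). Agr2, a disulfide isomerase needed for mucin folding, rose by 3.07 in that fit, and Spdef, a transcription factor of goblet cells, by 1.37. Ern2 rose by 1.40 (adjusted p = 0.034), and in all 5 of these genes the HDM samples lay above the PBS samples. The other 3 were not called: Clca2 had -0.60 (adjusted p = 0.54), with its HDM samples below its PBS samples, Agr3 -0.86 (0.39) and Dmbt1 0.02 (0.98). Bpifb1 was not called without the 3 samples with muscle signal (adjusted p = 0.083).

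Ion and solute transport split in direction, with 7 of 24 tested genes called higher and 5 lower (median -0.10). Slc26a4, the anion exchanger pendrin, had signals of 66.8, 43.1 and 101 after PBS and 1700, 1710 and 2030 after HDM (4.62, SE 0.25, adjusted p = 7.1e-08). Slc6a20a, an imino acid transporter, had 11, 5.47 and 10.3 against 197, 147 and 152 (3.44, SE 0.21), and the sodium-glucose transporter Slc5a1 rose by 1.78 (SE 0.23). The potassium channel Kcnn4 rose by 1.15. All 3 subunits of the epithelial sodium channel fell: Scnn1b from 305, 331 and 327 to 131, 156 and 119 (-1.21, SE 0.13), Scnn1g by 1.02 (SE 0.14) and Scnn1a by 0.72 (SE 0.10) on the log2 scale. The water channel Aqp5 fell from 702, 857 and 811 to 326, 317 and 363 (-1.22, SE 0.12). The groups overlapped in none of these genes.

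Chitinases and chitinase-like genes rose in 4 of 6 tested genes (median 1.96). Chil4 had signals of 13.4, 53.8 and 69.5 after PBS and 2700, 3470 and 3200 after HDM (6.09, SE 0.42). Chia1, the acidic chitinase, had 445, 564 and 616 against 3830, 4170 and 5120 (3.0, SE 0.17), and Chil3 had 731, 417 and 542 against 3380, 3880 and 3870 (2.74, SE 0.17). Chil1 rose by 1.19 (SE 0.13). The HDM signals of all 4 were above 2000, and their groups did not overlap.

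Resident epithelium other than mucous cells was lower in part. Of 15 tested club cell genes 9 were called lower and 0 higher (median -0.66). Selenbp1, a selenium-binding protein, fell from 2860, 2530 and 2700 to 905, 880 and 822 (-1.63, SE 0.11, adjusted p = 4.4e-07). Scgb3a2, a secretoglobin of the small airways, fell from 5500, 4700 and 5240 to 1820, 2060 and 1940 (-1.40, SE 0.11), and the cytochrome Cyp4b1 from 2760, 2280 and 2240 to 947, 980 and 880 (-1.36, SE 0.12). The defining secretoglobin Scgb1a1 had a log2 fold change of -0.11 (SE 0.14, adjusted p = 0.74), with overlapping groups. Its signals lay near the top of the range, where a change may be understated. The xenobiotic enzymes Cyp2b10 (-1.11), Fmo1 (-0.92), Fmo2 (-0.68, with 1 of its 4 probe sets not called) and Cyp2f2 (-0.66) fell. Ciliated cell genes were called lower in 5 of 23 and higher in 0 (median -0.44), led by the tubulin-binding Tppp3, from 933, 1140 and 1040 to 418, 453 and 407 (-1.27, SE 0.13), and Ccno, which acts in centriole amplification (-1.11, SE 0.25). The ciliated count was 3 without HDM replicate 1, HDM replicate 3 or PBS replicate 2, and 2 without the 3 samples with muscle signal, where Ccno (adjusted p = 0.095) and Cyp2f2 (0.13) were not called.

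The alveolar epithelium differed by cell type. Alveolar type 1 genes, which mark the thin gas-exchange cells, were called lower in 17 of 23 and higher in 0 (median -0.66). Akap5, an anchoring protein for kinase A, had 1870, 813 and 891 against 415, 345 and 301 (-1.63, SE 0.27), with PBS replicate 1 far above the other samples, and fell on 3 of 3 probe sets. The chloride channel protein Clic3 fell by 1.02 (SE 0.13), Emp2 by 0.84 (SE 0.11, and -0.41, not called, on 1 of its other probe sets), the homeodomain protein Hopx by 0.78 and caveolin Cav1 by 0.66. Ager, a widely used type 1 marker, had 14700, 20700 and 17000 against 10000, 14500 and 14800 (-0.42, SE 0.18, adjusted p = 0.18), with overlapping groups, and Pdpn had 0.17 (adjusted p = 0.61). Type 2 genes, which mark the surfactant-producing cells, were called higher in 3 of 21 and lower in 4 (median -0.03). Sftpc, also near the top of the range, had a log2 fold change of -0.05 (SE 0.18, adjusted p = 0.93). Only Sftpb among the tested surfactant protein genes was called (-0.52, SE 0.10). The 4 falls among type 2 genes were 2 without any 1 of HDM replicates 2 and 3 and PBS replicates 1 and 2, and 0 without the 3 samples with muscle signal. The type 1 count was 13 without HDM replicate 3, and 11 without the 3 samples with muscle signal, where Hopx (adjusted p = 0.099) and Sftpb (0.099) were not called.

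Endothelial genes were lower: 26 of 36 tested genes were called lower and 1 higher, with a median of -0.69, the lowest among lists with at least 5 tested members. Tmem100, a target of BMP signalling in endothelium, had 797, 890 and 598 after PBS and 336, 239 and 211 after HDM (-1.52, SE 0.18, adjusted p = 8.9e-05). Tek, the angiopoietin receptor, had 1140, 1110 and 1020 against 552, 499 and 445 (-1.12, SE 0.11), and Foxf1, a transcription factor of lung mesenchyme and endothelium, had 4780, 5510 and 4650 against 2610, 2300 and 2360 (-1.03, SE 0.12). In each of these the HDM signals lay well below the lowest PBS signal. Bmpr2, a BMP receptor, fell on 3 of 3 probe sets (-0.99, SE 0.19). The general markers Kdr (-0.82), Cdh5 (-0.75) and Flt1 (-0.71) also fell, although 1 of 2 probe sets of Cdh5 and 2 of 4 of Flt1 were not called. Vwf, the clotting factor of larger vessels, was higher, at 744, 706 and 635 against 890, 1020 and 1070 (0.51, SE 0.13), and Car4, a capillary enzyme, had -0.16 (adjusted p = 0.55). Selp, the adhesion molecule that captures leukocytes, rose by 1.0 (SE 0.24). It was not called without HDM replicate 1 (adjusted p = 0.059) or PBS replicate 2 (0.06), nor without the 3 samples with muscle signal. Without the 3 samples with muscle signal, 13 endothelial genes were called lower and 0 higher, Bmpr2 (adjusted p = 0.07) and Flt1 (0.19) were not called, and Vwf was also not called without HDM replicate 2, HDM replicate 3, PBS replicate 2 or PBS replicate 3.

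Genes of TGF-beta and BMP signalling, which in part act in the same vessels, were called lower in 12 of 24 and higher in 1 (median -0.45). The latent binding protein Ltbp4 fell from 935, 1240 and 1270 to 427, 474 and 365 (-1.42, SE 0.16). The co-receptor Tgfbr3 had -1.39 (SE 0.15) and -0.30, not called, on its other probe set. The ligand Bmp6 fell from 587, 597 and 601 to 290, 260 and 190 (-1.27, SE 0.14), the inhibitor Smad6 by 1.16 (SE 0.20), and the BMP target genes Id3 and Id1 by 0.71 and 0.67. The single rise was Fst, which binds activin (1.05, SE 0.22). The count of falls was 6 without the 3 samples with muscle signal, where Fst (adjusted p = 0.1) and Id1 (0.091) were not called. In the insulin-like growth factor axis, Igfbp3 fell from 1060, 1120 and 942 to 328, 320 and 276 (-1.72, SE 0.16) while the ligand Igf1 rose from 632, 466 and 521 to 1280, 1660 and 1780 (1.52, SE 0.21).

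Smooth muscle genes were called higher in 9 of 21 and lower in 4 (median 0.42). Among contractile genes, Actg2, the enteric smooth muscle actin, rose from 125, 161 and 152 to 569, 517 and 416 (1.73, SE 0.17), Acta2 from 1120, 1190 and 1390 to 2240, 2640 and 2740 (1.04, SE 0.13), and Tagln from 503, 674 and 616 to 1190, 1430 and 1150 (1.07, SE 0.13). Myh11, the smooth muscle myosin, had 138, 179 and 160 against 456, 435 and 278 (1.23, SE 0.22). HDM replicate 3 lay above all PBS samples in each of these 4 genes, and was the lowest HDM sample for Actg2, Tagln and Myh11. The genes called lower were Synm (-0.87), Itga8 (-0.87, SE 0.13), Ppp1r14a, an inhibitor of myosin phosphatase (-0.71), and Smtn, smoothelin of contractile cells (-0.58). Smtn was not called without any 1 of HDM replicates 1 and 3 and PBS replicates 2 and 3 (adjusted p = 0.069 to 0.1). It was also not called without the 3 samples with muscle signal. Without the 3 samples with muscle signal the counts were 5 higher and 2 lower, with Myh11 (adjusted p = 0.14) and Ppp1r14a (0.062) not called. The counts of rises were 6 without any 1 HDM sample or PBS replicate 1. In arrays centred on their median, 6 smooth muscle genes were called higher.

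Matrix genes rose in 13 of 31 and fell in 0 (median 0.42). Tnc, a matrix protein of remodelling tissue, had 78.3, 55.5 and 78.5 against 230, 186 and 144 (1.31, SE 0.19), and Thbs1 had 189, 186 and 145 against 386, 352 and 412 (1.12, SE 0.18). Among collagens, Col6a2 rose from 1000, 1170 and 1170 to 2110, 2220 and 2180 (0.96, SE 0.11) and Col3a1 by 0.55, while Col1a1 had 0.44 (SE 0.14, adjusted p = 0.058) with groups that did not overlap. Elastin, Eln, rose by 0.87 (SE 0.17). Of the proteases and inhibitors, Timp1 had 95.5, 95.5 and 93.1 against 379, 437 and 480 (2.10, SE 0.14) and Adam8, a protease of leukocytes, 102, 69.3 and 101 against 444, 416 and 451 (2.20, SE 0.17). Mmp13, a collagenase under the filter, had 15.2, 10.5 and 5.88 against 149, 141 and 146 in the fit with no filter (3.15, SE 0.26). Fibroblast genes were called lower in 6 of 20 and higher in 1, which was the pericyte regulator Rgs5, at 146, 122 and 170 against 500, 575 and 521 (1.82, SE 0.18). Another probe set of Rgs5 had 0.64 and was also called. Tcf21, a transcription factor of lung fibroblasts, had -0.73 (SE 0.10) and -0.01, not called, on its other probe set. Only 4 matrix genes were called without the 3 samples with muscle signal, and Tnc (adjusted p = 0.087), Col3a1 (0.22) and Eln (0.2) were not.

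Genes of activated macrophages were higher. Of 24 tested genes of alternatively activated macrophages 19 were called higher and 0 lower (median 1.60), and 15 higher without the 3 samples with muscle signal. Trem2, a lipid-sensing receptor, had 9.25, 6.43 and 10.5 after PBS and 157, 183 and 245 after HDM (3.67, SE 0.21, adjusted p = 1.0e-07). Alox15, a lipoxygenase induced by type 2 cytokines, had 32.2, 9.38 and 21.2 against 377, 333 and 290 (3.69, SE 0.31). Retnla, a resistin-like secreted protein, had 1250, 719 and 2170 against 4200, 5560 and 6800 (2.11, SE 0.37), and was already abundant after PBS. The lectin receptors Clec7a (2.0) and Mrc1 (1.68) and the scavenger receptor Cd163 (1.91) rose as well. Lipid-handling macrophage genes rose in 9 of 20 and fell in 0 (median 0.41), led by Gpnmb, at 19.7, 48.1 and 79.6 against 624, 548 and 852 (3.73, SE 0.34). The other probe set of Gpnmb had 0.69 and was not called. Lgals3 (galectin 3) had 746, 666 and 659 against 2360, 2440 and 3070 (1.91, SE 0.13). Many genes of these lists are also expressed by other cells, and Rnase2a and Alox15 stand in the eosinophil list too.

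Genes of lysosomal proteolysis, oxidative burst and complement were also higher, and which cells carry them was not tested. Cathepsins and their regulators were called higher in 12 of 16 and lower in 0 (median 0.93). Ctsk, a collagen-degrading cathepsin, had 131, 118 and 87.3 against 699, 689 and 658 (2.55, SE 0.16, adjusted p = 2.2e-07), and Ctss, which trims the invariant chain, had 1100, 652 and 890 against 2320, 2380 and 2860 (1.54, SE 0.16). The asparaginyl protease Lgmn rose by 1.47 (SE 0.17). Subunits of the phagocyte NADPH oxidase rose: Ncf1 from 575, 450 and 527 to 1540, 1610 and 1820 (1.66, SE 0.14), Ncf4 by 1.27, Cyba by 1.14 and Cybb by 0.92 (0.48, not called, on 1 of its 3 probe sets). Over its 3 called probe sets Ncf1 rose by 0.98 to 1.66. Nox4, the oxidase of stromal cells, fell from 165, 122 and 115 to 73.1, 61.1 and 44.4 (-1.09, SE 0.20), with -0.74, not called, on its other probe set. Arg2, the mitochondrial arginase, rose by 1.25 (SE 0.13) and the arginine transporter Slc7a2 by 1.26 (SE 0.14). The 3 chains of complement C1q rose: C1qa from 436, 340 and 378 to 1460, 1620 and 1750 (2.05, SE 0.14), C1qb by 2.08 (0.67 to 2.18 over its 3 called probe sets) and C1qc by 2.11. C3ar1, a complement receptor, rose on 3 of 3 probe sets, from 1.39 to 3.43 (SE 0.36 for the largest, its representative probe set). In lipid mediator metabolism, Pla2g7, which breaks down platelet-activating factor, had 74.7, 63.9 and 13.2 against 548, 484 and 518 (3.42, SE 0.37), and Hpgd, which degrades prostaglandins, fell from 765, 806 and 701 to 339, 298 and 198 (-1.45, SE 0.19).

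CC chemokines, which draw leukocytes into tissue, were called higher in 9 of 14 tested genes and lower in 0 (median 1.87). Ccl8 had 405, 122 and 364 against 3970, 4720 and 5260 (4.10, SE 0.39, adjusted p = 1.2e-05). Ccl11 and Ccl24, the eotaxins, had 25.3, 19.4 and 24 against 333, 420 and 453 (3.77, SE 0.29) and 8.01, 15.6 and 24.1 against 205, 179 and 264 (3.33, SE 0.30). Ccl9 had 167, 107 and 144 against 1560, 1590 and 2130 (3.60, SE 0.20), and no HDM signal of these 4 chemokines overlapped the PBS range. Ccl22 (2.64, SE 0.41) and Ccl17 (1.12, SE 0.17), which attract T helper cells, rose less. The monocyte attractant Ccl2 had 1.36 (SE 0.44, adjusted p = 0.072) and was not called. CXC and related chemokines split among tested genes, with 3 of 10 called higher and 4 lower. Cxcl3 had 13.4, 21.9 and 17.7 against 245, 207 and 153 (2.88, SE 0.34), while Ppbp of platelets (-0.97) and Cxcl14 (-0.83) fell. Of listed genes under the filter, Cxcl9 (2.03, adjusted p = 0.012) and Cxcl5 (1.77, 0.0097) were called higher in the limma fit with no filter. Cxcl10 (0.75), Cxcl2 (0.60), Cxcl11 (0.36) and Xcl1 (-0.83) were not called in that fit. Cxcl12 has no settled direction, since it was called lower on its representative probe set and higher on another (1.15, SE 0.13). The count of CC chemokines was 6 without HDM replicate 3. In the CXC list 1 gene was called higher and 3 lower without HDM replicate 2 or HDM replicate 3, and 1 in each direction without the 3 samples with muscle signal, where Ppbp was not called (adjusted p = 0.085).

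Among type 2 cytokines and receptors 7 of 17 tested genes were called higher and 0 lower (median 0.52). Il33, an alarm cytokine of epithelium and stroma, had 261, 226 and 243 against 742, 615 and 573 (1.37, SE 0.14, adjusted p = 1.6e-05). The receptor subunits Csf2rb, shared by interleukin 3, 5 and GM-CSF, and Csf2ra rose by 1.36 (SE 0.14) and 1.27 (SE 0.16), and the signalling inhibitor Socs1 by 1.57 (SE 0.30). Il4ra (0.27, adjusted p = 0.29), Il13ra1 (-0.34, adjusted p = 0.41) and Stat6 (0.08, adjusted p = 0.84), the receptor chains and transcription factor of interleukin 4 and 13, were not called. The cytokine Il13 itself had 4.65, 12.1 and 5.05 against 29.9, 16 and 15.5, all under the filter (adjusted p = 0.074 with no filter). The decoy receptor Il13ra2 had 20.1, 19.6 and 10.6 against 46, 42.7 and 62.4 (1.28, SE 0.26, adjusted p = 0.0093 with no filter). The count of 7 was 4 without HDM replicate 3, PBS replicate 2 or the 3 samples with muscle signal.

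Granulocytes left unequal traces. Of 11 eosinophil genes only 4 were tested, and 3 were called higher. Rnase2a and Alox15 were among the 3 and also stand in the list of alternatively activated macrophages. The count therefore does not single out eosinophils. Under the filter, the granule protein gene Prg2 had 14.3, 18.2 and 17.5 against 42.7, 40.1 and 40.8 (1.03, SE 0.21, adjusted p = 0.011 with no filter), and the peroxidase Epx had 30.7, 18.6 and 20.2 against 50.7, 41.5 and 40 (0.77, adjusted p = 0.059). Also not called in that fit were Prg3 (0.54, adjusted p = 0.21), Ccr3 (1.06, 0.083) and Il5ra (-0.23, 0.87), the last with overlapping groups. Mast cell and basophil genes were called higher in 4 of 9 and lower in 1. Mcpt2, a mucosal mast cell protease, had 36.3, 22.4 and 14.3 against 183, 192 and 157 (2.61, SE 0.23), and the chymase Cma1 rose by 0.92 (SE 0.17), though the protease genes form a family of close copies. The mast cell count of rises was 2 without HDM replicate 2 and 1 without the 3 samples with muscle signal, where Cma1 was not called (adjusted p = 0.16). Neutrophil genes gave 0 calls of 8 in the limma fit (median 0.07), with 1 gene in each direction at an unadjusted p under 0.05. S100a9, an abundant neutrophil protein, had 293, 144 and 124 against 88, 174 and 91.9 (-0.60, SE 0.28, adjusted p = 0.24), with overlapping groups, and the summed signal of 11 neutrophil genes was 712 to 973 after PBS and 714 to 850 after HDM.

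B lineage genes were higher after HDM. Of 12 tested plasma cell and immunoglobulin genes 9 were called higher and 0 lower (median 2.30). Iglv1, a lambda light chain gene, had 53.3, 32.8 and 74 after PBS and 1460, 1460 and 2310 after HDM (4.88, SE 0.31, adjusted p = 2.5e-07). Jchain, which joins IgA and IgM into polymers, had 432, 76.8 and 307 against 2520, 2530 and 2810 (3.54, SE 0.50), and Igha, the IgA heavy chain, had 135, 98.7 and 155 against 1250, 1500 and 1800 (3.49, SE 0.26). PBS replicate 2 was the lowest sample for all 3. Pigr, which carries polymeric antibody across epithelium, had 203, 145 and 171 against 1700, 1410 and 1970 (3.24, SE 0.20). Mzb1, a chaperone of antibody-secreting cells, rose by 3.02 (SE 0.26). B cell genes were called higher in 11 of 16 and lower in 0 (median 1.04): Pou2af1, a B cell coactivator, had 123, 68.5 and 72 against 405, 323 and 419 (2.07, SE 0.20), and Ms4a1 (CD20) had 168, 134 and 175 against 345, 357 and 631 (1.39, SE 0.20). Ighm, although called on all its probe sets, was not called on its representative probe set without HDM replicate 2, HDM replicate 3 or PBS replicate 2 (adjusted p = 0.072, 0.12 and 0.1), nor without the 3 samples with muscle signal (0.15). Genes of protein folding in the endoplasmic reticulum were called higher in 11 of 25 and lower in 1 (median 0.42), among them Creld2 (1.67, SE 0.20) and Manf (1.21, SE 0.16). Edem1, which clears misfolded proteins, had 2.04 (SE 0.14) and 0.33, not called, on its other probe set. The single fall, Herpud1 (-0.57), was not called without HDM replicate 1, HDM replicate 2, PBS replicate 2 or the 3 samples with muscle signal (adjusted p = 0.056 to 0.44).

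Genes of antigen presentation were higher. Of 11 tested class II genes 10 were called higher and 0 lower (median 1.01). H2-Ab1, a class II beta chain, had 930, 550 and 1010 against 1550, 1470 and 1880 (1.01, SE 0.19), and Ifi30, a lysosomal reductase, had 585, 561 and 594 against 1400, 1390 and 1750 (1.37, SE 0.11). The transactivator Ciita rose by 1.01 (SE 0.18). In the MHC class I and immunoproteasome list 4 of 12 genes were called higher and 0 lower (median 0.39), and 1 without HDM replicate 3, PBS replicate 3 or the 3 samples with muscle signal and 2 without PBS replicate 2. Itgax (CD11c), a marker of dendritic cells and lung macrophages, had 235, 231 and 250 against 1350, 1220 and 1160 (2.34, SE 0.11, adjusted p = 1.5e-08), and 6 of 17 dendritic cell genes were called higher. Fcgr3, an activating receptor for IgG, had 116, 99.5 and 121 against 482, 511 and 518 (2.10, SE 0.14), and Fcer2a, the low-affinity receptor for IgE, had 98.2, 59.8 and 99.3 against 271, 266 and 242 (1.55, SE 0.17). T cell genes were called higher in 8 of 21 and lower in 0 (median 0.43). Cd4 had 18.5, 14.3 and 16.2 against 57.4, 52.3 and 98.3 (1.67, SE 0.29) and the costimulator Icos 165, 163 and 152 against 403, 359 and 411 (1.23, SE 0.14, and 0.42, not called, on its other probe set), while Cd8a had 0.03 (adjusted p = 0.97) and Foxp3 0.34 (adjusted p = 0.44). The T cell count was 4 without HDM replicate 3 or PBS replicate 2, and 5 without the 3 samples with muscle signal. Interferon response genes gave 0 rises and 1 fall of 18 (median 0.02). Under the filter, Mx1 (0.74, adjusted p = 0.086) and Mx2 (0.15, 0.76) were not called in the limma fit with no filter. The groups of Mx1 did not overlap.

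Acute phase and airway defence genes rose in 6 of 16 and fell in 4. Slpi, an antiprotease, had 307, 630 and 243 against 1310, 2030 and 2020 (2.26, SE 0.29), Saa3 had 112, 81.9 and 84.3 against 533, 440 and 596 (2.41, SE 0.16), and the lectin Reg3g 217, 72.8 and 125 against 727, 770 and 813 (2.54, SE 0.51). Bpifa1, a protein of the upper airway surface, fell from 2840, 1660 and 2300 to 655, 884 and 1010 (-1.40, SE 0.22), and Hp (haptoglobin) from 2630, 2880 and 2660 to 1260, 1470 and 1320 (-1.01, SE 0.12). The related secreted proteins Bpifa1 and Bpifb1 thus changed in opposite directions, and the groups overlapped in neither. Without the 3 samples with muscle signal 5 genes were called higher, without Reg3g (adjusted p = 0.15), and 2 lower.

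**Figure D3:**
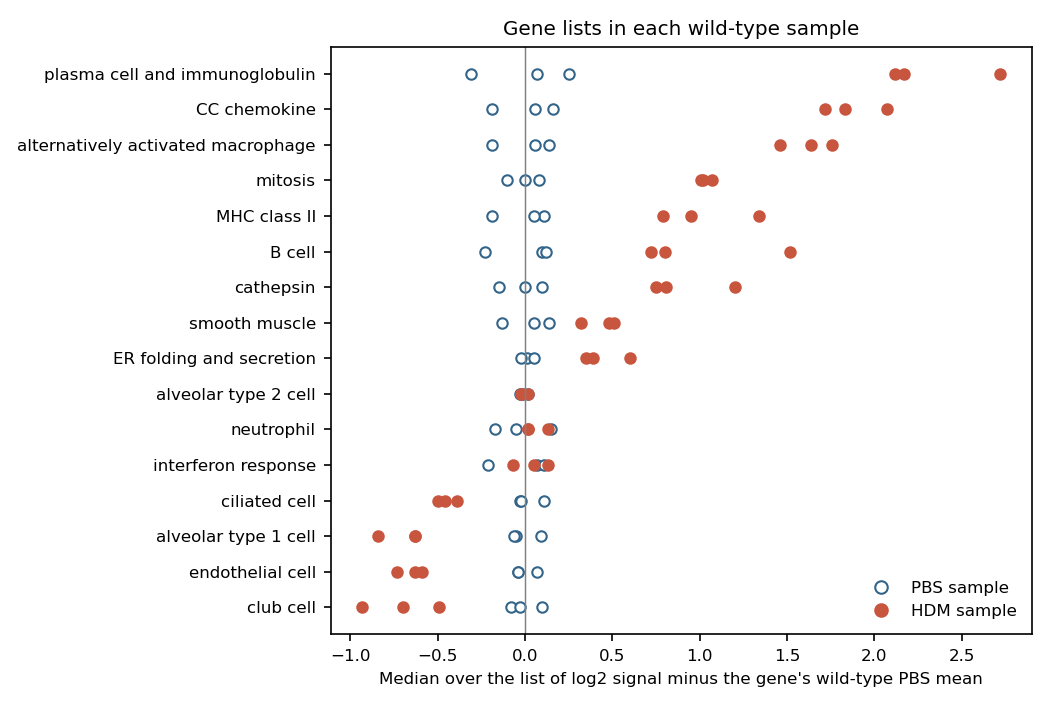
Median over the tested members of 16 gene lists of log2 signal minus the gene's wild-type PBS mean, 1 open point per PBS sample and 1 filled point per HDM sample. The HDM points of the plasma cell list lie at 2.12 to 2.72 and those of the endothelial list at -0.73 to -0.59, apart from the PBS points, while the points of the neutrophil, interferon and alveolar type 2 lists overlap.

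The lists differed in which HDM sample was highest. For B cell genes the medians relative to PBS were 0.72, 0.80 and 1.52, for MHC class II 0.95, 0.79 and 1.34 and for plasma cell genes 2.17, 2.12 and 2.72, so HDM replicate 3 was highest in all 3. For mitosis genes they were 1.07, 1.02 and 1.01, nearly level. PBS replicate 2, which had the lowest actin ratio, had the lowest PBS median for plasma cell genes (-0.31), B cell genes (-0.23) and MHC class II genes (-0.19). The part of RNA integrity in these values was not tested beyond a fit with the actin ratio as a covariate.

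Proliferation genes were higher after HDM. Of 24 tested mitosis genes 20 were called higher and 0 lower (median 1.02), and of 25 tested DNA replication genes 10 higher and 0 lower (median 0.63). Mki67, present in cycling cells, had 53, 40.2 and 47.1 after PBS and 175, 183 and 246 after HDM (1.94, SE 0.16, adjusted p = 2.8e-06). Cdk1, the kinase that drives entry into mitosis, had 59.2, 38.3 and 45.4 against 157, 156 and 190 (1.69, SE 0.24), and its partner Ccnb2 had 70.3, 48.3 and 31.9 against 132, 116 and 115 (1.22, SE 0.21). Rrm2, the ribonucleotide reductase subunit of S phase, had 76.8, 72.5 and 72.9 against 290, 218 and 265 (1.70, SE 0.13) on 3 of 3 called probe sets. The helicase subunits Mcm6 and Mcm5 had 37.3, 76.6 and 11.5 against 178, 91.8 and 151 (1.80, SE 0.40) and 366, 290 and 216 against 681, 634 and 824 (1.28, SE 0.19), where Mcm6 varied more between samples and 1 of 3 probe sets of Mcm5 was not called (-0.06). The mitosis count was 14 to 17 without any 1 wild-type sample and 7 without the 3 samples with muscle signal, where Ccnb2 was not called (adjusted p = 0.095).

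Since these genes moved together, their promoters (250 bases before to 50 after the start site, RefSeq, build GRCm38.p6) were searched on both strands for motifs known from cell cycle promoters. CCAAT, the box bound by NF-Y, was present in 17 of 21 mitosis genes with a promoter (81%), against 41.8% of the 11604 tested genes with one and 41.1% of all 27025 genes in the table. It was also present in 12 of 14 circadian clock genes (85.7%) and in 59.1% of DNA replication genes, so it does not set the mitosis genes apart. The E2F motif (TTTCCCGC, TTTGGCGC, TTTCGCGC or TTTGCCGC) was present in 9 of 22 DNA replication genes (40.9%), against 4.18% of tested and 2.6% of all genes. A match describes letters only, and none of the motifs contains another. Both mitosis promoters below hold 3 CCAAT boxes, and the helicase promoters hold 2 and 1 E2F motifs. Each sequence has only 1 of the 2 motifs marked. Unmarked CCAAT boxes also lie in the Mcm6 and Mcm5 sequences, and an unmarked TTTCGCGC in that of Cdk1, so the motifs do not separate these promoters. Rrm2 held 0 E2F matches in its window. Capitals mark CCAAT, or ATTGG where the match lies on the other strand, in Ccnb2 (chr9:70421505-70421804, minus strand) and Cdk1 (chr10:69352863-69353162, minus strand). They mark the E2F motif in either orientation in Mcm6 (chr1:128359656-128359955, minus strand) and Mcm5 (chr8:75109259-75109558, plus strand).
Ccnb2: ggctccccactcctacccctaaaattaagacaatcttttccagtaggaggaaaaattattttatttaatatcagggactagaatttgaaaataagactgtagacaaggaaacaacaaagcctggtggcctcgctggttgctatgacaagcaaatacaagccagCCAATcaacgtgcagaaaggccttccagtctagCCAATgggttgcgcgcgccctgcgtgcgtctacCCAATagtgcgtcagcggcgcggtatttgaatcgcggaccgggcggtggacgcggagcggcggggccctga
Cdk1: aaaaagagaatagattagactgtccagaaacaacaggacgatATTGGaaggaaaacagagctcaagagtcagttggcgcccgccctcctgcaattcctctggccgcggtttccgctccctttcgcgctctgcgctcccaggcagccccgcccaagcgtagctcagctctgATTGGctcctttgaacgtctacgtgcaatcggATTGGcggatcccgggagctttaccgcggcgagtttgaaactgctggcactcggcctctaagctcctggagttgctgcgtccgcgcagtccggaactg
Mcm6: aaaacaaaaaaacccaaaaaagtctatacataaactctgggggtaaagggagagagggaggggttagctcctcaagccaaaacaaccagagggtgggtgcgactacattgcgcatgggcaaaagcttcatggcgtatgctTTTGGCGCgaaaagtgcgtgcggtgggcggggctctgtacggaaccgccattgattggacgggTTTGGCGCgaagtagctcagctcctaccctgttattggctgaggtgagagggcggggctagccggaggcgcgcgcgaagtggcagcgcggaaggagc
Mcm5: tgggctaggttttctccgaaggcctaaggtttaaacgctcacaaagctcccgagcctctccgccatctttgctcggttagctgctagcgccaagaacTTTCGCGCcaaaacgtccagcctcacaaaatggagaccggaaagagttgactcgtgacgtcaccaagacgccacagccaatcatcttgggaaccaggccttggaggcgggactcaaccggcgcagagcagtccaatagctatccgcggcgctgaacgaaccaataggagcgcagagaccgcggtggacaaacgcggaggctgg
In Ccnb2 the boxes start 87, 54 and 21 bases before the start site, and in Cdk1 208, 80 and 48 bases before it.

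Clock and stress genes moved in both directions. Nr1d1 and Nr1d2, the REV-ERB repressors, fell from 308, 361 and 470 to 107, 145 and 106 (-1.61, SE 0.22) and from 634, 521 and 652 to 207, 279 and 227 (-1.32, SE 0.25). Tef, an activator of the same clock arm, fell from 803, 941 and 925 to 514, 540 and 548 (-0.73, SE 0.14; 1 of its 3 probe sets had -0.09 and was not called), while Bhlhe40 rose from 222, 241 and 174 to 533, 354 and 640 (1.21, SE 0.20) and Nfil3, which opposes Tef, rose by 0.92 (SE 0.20). The core activators Arntl (0.17, adjusted p = 0.69) and Clock (-0.16, adjusted p = 0.83) were not called. Over the list 2 of 16 genes were called higher and 4 lower (median -0.51). The sources used here do not give the time of day of sampling, and its part was not tested. Kruppel-like factors were called lower in 7 of 13 and higher in 0 (median -0.59), with Klf15 first, then Klf4, from 592, 739 and 672 to 416, 378 and 287 (-0.89, SE 0.18), and Klf9 (-0.79, SE 0.15), of whose 5 probe sets 3 were not called (-0.41, -0.38 and -0.26). Klf15 and Klf9, like the phosphatase Dusp1 (-1.17, SE 0.21), are known to respond to glucocorticoid. Of 21 immediate early genes 3 were called higher, Gadd45g (1.85), Atf3 (1.83) and Egr2 (1.39), and 5 lower. The falls of immediate early genes were 2 without HDM replicate 2, HDM replicate 3 or PBS replicate 1. Without the 3 samples with muscle signal 4 Kruppel-like factors, 2 falling clock genes and 1 rising clock gene were called, and Nr1d2 (adjusted p = 0.052), Tef (0.16), Nfil3 (0.12) and Atf3 (0.081) were not.

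Some markers of heart muscle and of red cells were lower after HDM. Cardiac muscle genes, which the mouse lung carries in its pulmonary veins, were called lower in 3 of 11, with 4 of 11 above 0 (median -0.51). Myh6, the atrial myosin, had 522, 482 and 472 against 199, 208 and 217 (-1.22, SE 0.22), and the summed signal of the 11 genes was 3160 to 3680 after PBS and 2350 to 2760 after HDM. Alas2, the heme synthesis enzyme of red cell precursors, had 1380, 1470 and 1010 against 513, 514 and 544 (-1.27, SE 0.17), and the summed signal of 6 erythroid genes was 1200 to 1630 after PBS and 634 to 733 after HDM, most of it Alas2. Of the others, Car1 had 10.1, 5.09 and 3.14 against 12.9, 18.7 and 31.7 and Hba-a1 16.5, 14.6 and 40.3 against 28.9, 35.8 and 44.1, both under the filter and not called. The cardiac count was 1 without any 1 of HDM replicates 1 and 2 and PBS replicates 1 and 2, and Myh6 was not called without the 3 samples with muscle signal (adjusted p = 0.1). The groups did not overlap in these sums, and the part of tissue composition in the other results was not tested. The skeletal muscle, adipose and thymus lists gave 0 calls each in the limma fit, with 1, 0 and 2 genes at an unadjusted p under 0.05.

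The same contrast in IL-13 KO samples set the wild-type response beside one without interleukin 13. In IL-13 KO, 953 genes (6.59%) were called higher after HDM and 865 (5.98%) lower. The difference of the 2 effects was called in 26 of 14469 genes (0.18%), and 1787 probe sets had an unadjusted p under 0.05. In 25 of the 26 the log2 fold change was higher in wild type. By probe sets the split was 30 to 1, but it was 28 to 5 with the replicate block and 7 to 6 without the 3 samples with muscle signal, where 7 probe sets were shared with the 31. Chil4 had 27.5, 101 and 43.1 in KO PBS and 111, 141 and 129 in KO HDM samples, against 2700 to 3470 in wild-type HDM samples (wild-type minus KO effect 4.87, SE 0.60, adjusted p = 0.0039). Ccl11 stayed at 6.47 to 27.8 over all 6 KO samples (difference 4.02, SE 0.41, adjusted p = 0.00097). Slc26a4 rose in KO too, from 46.8, 77.3 and 37.6 to 241, 187 and 227, but less (difference 2.69, SE 0.36), and so did Chia1 (2.05, SE 0.25) and Pigr (2.26, SE 0.28). With the actin ratio as a covariate the difference was not called for Slc26a4 (adjusted p = 0.12) or Pigr (0.071), and without the 3 samples with muscle signal not for Slc26a4 (0.067) or Chil4 (0.065).

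Rbp4, the carrier of retinol in blood, moved in opposite directions. It rose from 181, 243 and 223 to 890, 724 and 611 in wild type (1.74, SE 0.15) and fell from 265, 249 and 289 to 167, 166 and 176 in KO (-0.64, SE 0.15), a difference of 2.38 (SE 0.21, adjusted p = 0.00018). In the smooth muscle list the difference was called in 5 of 21 genes: Actg2, Tpm2, Myh11, Tagln and Acta2 had differences of 2.19, 2.36, 2.19, 1.42 and 1.18, with KO effects of -0.47, -0.94, -0.96, -0.35 and -0.14, of which those of Tpm2 and Myh11 were called. The difference was not called without the 3 samples with muscle signal for Myh11 (adjusted p = 0.19), Tagln (0.073) or Acta2 (0.15), nor for Acta2 with the actin covariate (0.13). Skeletal muscle signal was summed for wild-type samples only, and its part in the KO effects was not tested. Scgb3a2 was the only gene of the 26 with the opposite sign, since it fell by 1.40 in wild type and by 0.25 (not called) in KO (difference -1.16, SE 0.15). Other large wild-type rises were of similar size in KO: Rnase2a had 6.20 and 6.17, Iglv1 4.88 and 4.90, Ccl8 4.10 and 4.60 and Trem2 3.67 and 3.43, with adjusted p of 0.96 to 1 for the difference, which does not show that they were equal. Retnla rose by 2.57 (SE 0.37) in KO. The actin ratio was lower in KO HDM samples (0.464 to 0.656 on set A) than in wild-type HDM samples (0.695 to 0.832), and with it as a covariate 16 probe sets in place of 31 were called. Actg2, Ccl11, Chia1, Rbp4 and Tpm2 were called under all alternatives in which they were tested, whereas Pcx and F3 were called in 5 and 7 of 17. For Tpm2 this holds for its representative probe set only. Its other probe sets had differences of 0.73 and 1.52, not called in the limma fit (adjusted p = 0.92 and 0.2).

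**Figure D4:**
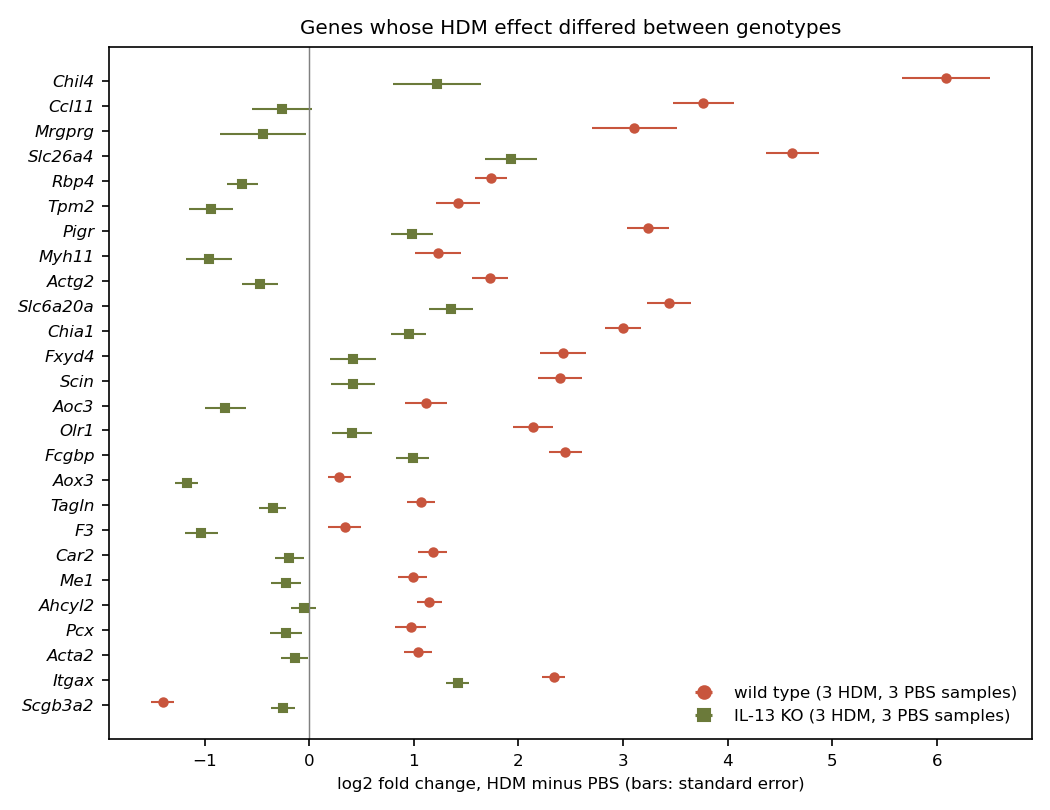
log2 fold change (HDM minus PBS) in wild type (circles) and in IL-13 KO (squares) of the 26 genes whose effect differed between genotypes, with standard error bars from the limma fit and 3 samples in each group. The circles lie to the right of the squares for every gene but Scgb3a2, from a difference of 4.87 for Chil4 to 0.92 for Itgax.

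The STAT6 motif, TTC and GAA with any 4 bases between them and so the same on both strands, was searched in the same promoter windows because interleukin 13 acts through STAT6. It was present in 64 of 664 genes called higher that have a promoter (9.64%), in 42 of 654 called lower (6.42%) and in 786 of 11604 tested genes (6.77%), against 8.01% of all genes in the table. Of the 8 genes with a promoter among the 15 largest rises 0 held it. Of the genes whose log2 fold change was called higher in wild type than in KO, 3 of 19 with a promoter held it, Rbp4, Itgax and Mrgprg. No match says only that these letters are not in this window. Capitals mark the motif in Rbp4 (chr19:38125272-38125571, minus strand), where it starts 120 bases before the start site and is absent from the window of the gene's other start, and in Itgax (chr7:128129300-128129599, plus strand), 127 bases before. Retnla, a classic STAT6 target whose rise did not differ between genotypes beyond the spread, holds it 145 bases before its start (chr16:48842359-48842658, plus strand).
Rbp4: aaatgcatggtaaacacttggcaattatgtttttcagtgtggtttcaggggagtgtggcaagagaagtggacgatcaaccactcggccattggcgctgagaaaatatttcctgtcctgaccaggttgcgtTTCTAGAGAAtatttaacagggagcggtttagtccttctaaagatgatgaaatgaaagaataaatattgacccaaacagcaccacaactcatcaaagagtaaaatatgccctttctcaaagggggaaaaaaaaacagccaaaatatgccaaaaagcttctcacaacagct
Itgax: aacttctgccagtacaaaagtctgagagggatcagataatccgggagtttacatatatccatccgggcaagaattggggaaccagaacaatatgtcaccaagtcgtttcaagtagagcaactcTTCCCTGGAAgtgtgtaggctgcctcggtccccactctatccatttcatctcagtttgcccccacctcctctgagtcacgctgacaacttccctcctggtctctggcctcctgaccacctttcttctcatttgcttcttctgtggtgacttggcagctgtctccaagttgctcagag
Retnla: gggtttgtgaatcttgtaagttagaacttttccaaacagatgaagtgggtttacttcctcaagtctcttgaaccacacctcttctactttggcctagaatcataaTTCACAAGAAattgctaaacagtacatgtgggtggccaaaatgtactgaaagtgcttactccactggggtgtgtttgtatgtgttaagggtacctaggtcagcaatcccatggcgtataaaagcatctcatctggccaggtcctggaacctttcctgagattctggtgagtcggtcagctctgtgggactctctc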

How the data were processed

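Total RNA of 12 lung samples was measured on a pair of oligonucleotide arrays, set A and set B, joined per sample by the shared title. The authors deposited linear intensities, 1 value per probe set, and the trimmed mean of every array was 150 on inspection. The sources used here do not name the software behind the deposited intensities, and no detection calls were used. The arrays held 22690 (set A) and 22575 (set B) probe sets. Probe sets were named through the platform annotation, updated through a RefSeq gene table. Of these, 20393 and 14674 had 1 gene symbol, 691 and 245 several, and 1606 and 7656 none. Only those with 1 symbol were named, and control probe sets were left out.

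Log2(intensity + 7) on set A and log2(intensity + 11) on set B were computed from the deposited values. Probe sets with a mean below the 30th percentile (signals of 32 and 38.9) were left out, leaving 15838 and 15688. A limma 3.58.1 model (R 4.3.3) of the 4 groups was fitted to each set, with an intensity trend and 8 residual degrees of freedom, and p-values were adjusted by Benjamini-Hochberg over both sets. An exact permutation test of 3 against 3 samples cannot go below p = 0.1, so none was used. The small number of arrays limits the precision. Tables were handled with Python 3.11.15 and pandas 2.3.3, and figures with matplotlib 3.10.9.

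The members, gene lists and named-gene rule were chosen with earlier results of these data known. The text names the 15 largest rises and 15 largest falls whose groups do not overlap, up to 6 called members of each list by size, up to 10 genes called on all of 3 or more probe sets, the genes whose effect differed between genotypes, and defining members of lists whether called or not. Another 30 called genes outside this rule, most of them list members such as Muc5b, Kdr and Vwf, were named after their values were seen. Genes not on the arrays were not analysed here.

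Replicate numbers come from the titles. Deviations of same-numbered HDM and PBS samples had correlations of -0.098 to 0.037 (set A) and -0.117 to 0.05 (set B), so the numbers were not taken to pair the samples. Alternatives were other pseudocounts, filters, centring, quantile normalization, no intensity trend, gene means, wild-type samples only, a replicate block, each wild-type sample left out, and the 3 samples with skeletal muscle signal left out. A joint variance model and the actin ratio as a covariate were added after seeing the data.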

Additional observations from a re-analysis of the deposited data

Results flagged for a closer look

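For 26 genes the effect of HDM differed between wild type and IL-13 KO by the interaction term of the limma model (adjusted p under 0.05 over all probe sets). Values are the wild-type effect minus the KO effect on the log2 scale. The differences above 2 were in Chil4 (4.87), Ccl11 (4.02), Mrgprg (3.55), Slc26a4 (2.69), Rbp4 (2.38), Tpm2 (2.36), Pigr (2.26), Myh11 (2.19), Actg2 (2.19), Slc6a20a (2.08), Chia1 (2.05) and Fxyd4 (2.01). The actin regulator Scin had 1.98, the amine oxidase Aoc3 1.92 and the lipoprotein receptor Olr1 1.73. Fcgbp had 1.47, Aox3 1.46, Tagln 1.42, the clotting initiator F3 1.38 and the carbonic anhydrase Car2 1.37. Among enzymes of central metabolism Me1 had 1.22, Ahcyl2 1.20 and Pcx 1.19. Acta2 had 1.18 and Itgax 0.92. The single negative difference was that of Scgb3a2 (-1.16). The least stable were Pcx, called in 5 of 17 alternatives, F3 and Itgax in 7, Me1 in 8, and Mrgprg and Olr1 in 8 of 16.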

How the results depend on the processing

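Of 301 called genes examined, 195 kept their call under every alternative run and 245 under those that kept at least 2 samples in each group and all 4 groups. Only Cxcl12 reversed, to 0.12 with gene means over probe sets, since its probe sets were called in opposite directions. The 2788 called probe sets were 1710 with wild-type samples only and 1396 when the 3 samples carrying muscle signal were left out, where fewer samples enter. The 1717 called genes were 1082 and 860 in those fits. Leaving out 1 wild-type sample at a time gave 1689 to 2393 probe sets and 1074 to 1489 genes, in both cases lowest without HDM replicate 3. The other alternatives gave 2324 to 2895 probe sets and 1399 to 1797 genes. The difference between genotypes, 31 probe sets, was 16 with the actin ratio as a covariate and 13 without the 3 samples with muscle signal, and 16 to 31 with 1 wild-type sample left out, lowest without HDM replicate 2 and at 20 without HDM replicate 3. With the replicate block the counts were 2695 probe sets, 1650 genes and 33 probe sets for the difference, and 5 of the genes examined lost their call. No scaling alternative moved the median over all genes by more than 0.1. The number of arrays limits the precision, and genes with low signal have understated changes.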
